A study of Loxodonta africana with 12 samples.

Results

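The BCL2 family of apoptosis regulators was followed in African elephant (Loxodonta africana) blood with and without ionizing radiation. Its members were taken by gene symbol from a list of 10 (BAX, BAK1, BCL2, BCL2L1, BCL2A1, MCL1, BID, BCL2L11, PMAIP1 and BIK), and 8 of the 10 symbols were found among the 16406 genes of the deposited tables. MCL1 and BIK were not analysed here. The proteins of this family decide whether the outer mitochondrial membrane is opened and the cell dies. BAX and BAK1 are the effectors that form the pores, BCL2, BCL2L1 (BCL-XL) and BCL2A1 (BFL1) hold them in check, and the BH3-only proteins BID, BCL2L11 (BIM) and PMAIP1 (NOXA) engage the guardians or the effectors when a cell is stressed. In mammals BAX and PMAIP1 are known targets of p53, and BCL2A1 is a survival gene of blood cells.

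RNA sequencing covered 12 libraries in 4 groups of 3: blood irradiated at 2 Gy at 5 h, untreated blood at 5 h, irradiated blood at 24 h and untreated blood at 24 h. The study set irradiated against untreated cells to find genes that differ between them. The labels give neither age, sex nor genotype, do not say how the cells were kept, and do not tell if the 3 libraries of a group stem from different animals, draws or cultures. The p-values therefore reflect library-to-library spread only, and that spread could be technical. The libraries held 31.1e6 to 38.1e6 counts at 5 h in irradiated and 31.1e6 to 36.0e6 in untreated blood, and 18.0e6 to 23.8e6 counts at 24 h in irradiated against 22.9e6 to 37.4e6 in untreated blood. The lowest count of any member in any library was 54 (BCL2), so none was near the detection limit. All 8 members passed the filter on low counts in all 5 comparisons.

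Markers of white blood cells were present in every library. The 8 monocyte markers found summed to 9297 to 11180 CPM (read counts scaled to library size, with TMM factors, the trimmed mean of M values) in irradiated and 5421 to 6845 CPM in untreated blood at 24 h. The 8 erythroid markers found summed to between 21.9 and 77.4 CPM in all 12 libraries. No marker found in the tables was at 0 in all libraries of a group. In bulk samples, fewer cells of a type and less RNA per cell cannot be told apart.

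BCL2A1 was the most abundant member in all 4 groups by the authors' FPKM, a level per length that does not use the TMM factors. These factors were 0.843 to 0.878 at 5 h and 1.105 to 1.324 at 24 h. FPKM of the 2 times are thus not on the scale of the tests. BCL2A1 averaged 1395 ± 71.6 FPKM in irradiated and 1466 ± 142 FPKM in untreated blood at 5 h (SD, n = 3 each). At 24 h it averaged 951 ± 147 FPKM in irradiated and 755 ± 114 FPKM in untreated blood (SD, n = 3 each). It made up 68.5 ± 0.896% of the summed FPKM of the 8 genes in irradiated and 75.5 ± 1.51% in untreated blood at 5 h, and 58.1 ± 6.91% in irradiated and 61.1 ± 5.90% in untreated blood at 24 h. BCL2, the founding member, was the lowest in all 4 groups, at 2.89 ± 0.648 FPKM in irradiated and 3.72 ± 0.754 FPKM in untreated blood at 5 h, and at 4.21 ± 0.851 FPKM in irradiated and 6.10 ± 1.23 FPKM in untreated blood at 24 h. BAK1 was second lowest in all 4 groups, between 6.54 and 19.96 FPKM in single libraries.

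**Figure D1:**
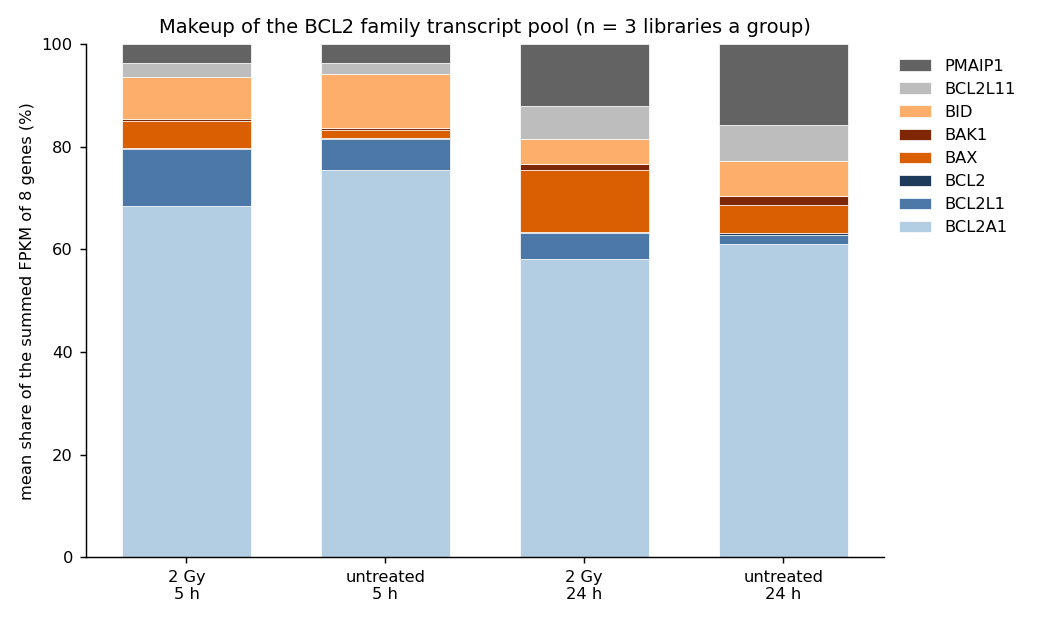
Stacked bars give the mean share (%) of each of 8 genes in their summed FPKM, for irradiated (2 Gy) and untreated blood at 5 h and 24 h, 3 libraries a group. BCL2A1 takes 58.1% to 75.5% in each group, and the BAX share is 5.19% in irradiated against 1.54% in untreated blood at 5 h and 12.1% against 5.53% at 24 h.

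The members between these extremes changed places. In irradiated blood at 5 h the order below BCL2A1 was BCL2L1 (226 FPKM), BID (168), BAX (106), PMAIP1 (76.6) and BCL2L11 (54.3 FPKM), and no neighbours in that order overlapped between libraries. In untreated blood at 5 h it was BID (202 FPKM), BCL2L1 (117), PMAIP1 (73.2), BCL2L11 (41.8) and BAX (29.6 FPKM), again with no overlap. BAX thus stood directly above PMAIP1 in irradiated blood and below BCL2L11 in untreated blood. In irradiated blood at 24 h BAX (197 FPKM) and PMAIP1 (196 FPKM) came next after BCL2A1 and overlapped, followed by BCL2L11 (106), BCL2L1 (83.1) and BID (78.4 FPKM). PMAIP1 also overlapped with BCL2L11 there, and BCL2L1 with BID. In untreated blood at 24 h the order was PMAIP1 (198 FPKM), BCL2L11 (85.5), BID (84.3), BAX (68.0) and BCL2L1 (20.04 FPKM), and BCL2L11 overlapped with BID and BCL2L1 with BAK1 (19.7 FPKM).

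Irradiation was followed by higher BAX and BCL2L1, an effector and a guardian, at both times. At 5 h 2 of 8 members passed the test, both higher, where 1.6% of all 12969 genes tested passed in either direction with 1.12% higher and 0.478% lower. At 24 h the same 2 members of 8 passed, both higher, where 6.73% of 14373 genes passed with 1.8% higher and 4.94% lower. The median log2 fold change of the 8 members was 0.05 at 5 h and 0.22 at 24 h, beside medians of -0.0015 and 0.013 over all genes tested. The other 6 members did not pass at either time.

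BAX (ENSLAFG00000002489, scaffold 4, 8866244 to 8870063, minus strand) is the effector that moves from the cytosol into the mitochondrial membrane. It had 87.7, 89.5 and 86.4 CPM in irradiated libraries at 5 h, against 24.3, 24.5 and 23.8 CPM in untreated libraries. At 24 h it had 118, 117 and 130 CPM in irradiated libraries, against 33.9, 45.1 and 41.0 CPM in untreated libraries. All 3 irradiated libraries lay above all 3 untreated ones at each time. Of all genes tested, 18.8% at 5 h and 25.4% at 24 h had no overlap in either direction. The coefficient of variation of BAX at 5 h was 1.79% in irradiated and 1.40% in untreated blood. The log2 fold change was 1.85 ± 0.06 (SE) at 5 h, or 3.60-fold (edgeR's quasi-likelihood test, adjusted p = 1.43e-05), the second smallest p of all genes tested. It was 1.61 ± 0.11 at 24 h, or 3.05-fold (adjusted p = 0.000527). The BAX model lies inside the span of BCAT2, a branched-chain aminotransferase gene on the opposite strand (ENSLAFG00000012170, scaffold 4, 8823671 to 9014037, plus strand). BCAT2 itself had a log2 fold change of 0.27 ± 0.20 at 5 h (adjusted p = 0.639) and -0.25 ± 0.18 at 24 h (adjusted p = 0.479), with 76 to 205 counts per library, against 646 to 3139 counts of BAX. The sources used here do not state if reads were counted by strand.

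BAK1 (ENSLAFG00000001446, scaffold 105, 2391421 to 2395070, plus strand) is the effector that resides in the mitochondrial membrane. It had 5.07 to 6.12 CPM in irradiated and 4.88 to 6.24 CPM in untreated libraries at 5 h, and 9.12 to 10.1 CPM in irradiated and 9.42 to 10.9 CPM in untreated libraries at 24 h. The groups overlapped at both times. Its log2 fold change was 0.02 ± 0.14 at 5 h (adjusted p = 0.968) and -0.09 ± 0.11 at 24 h (adjusted p = 0.674), and the 5 h direction turned under upper quartile scaling.

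**Figure D2:**
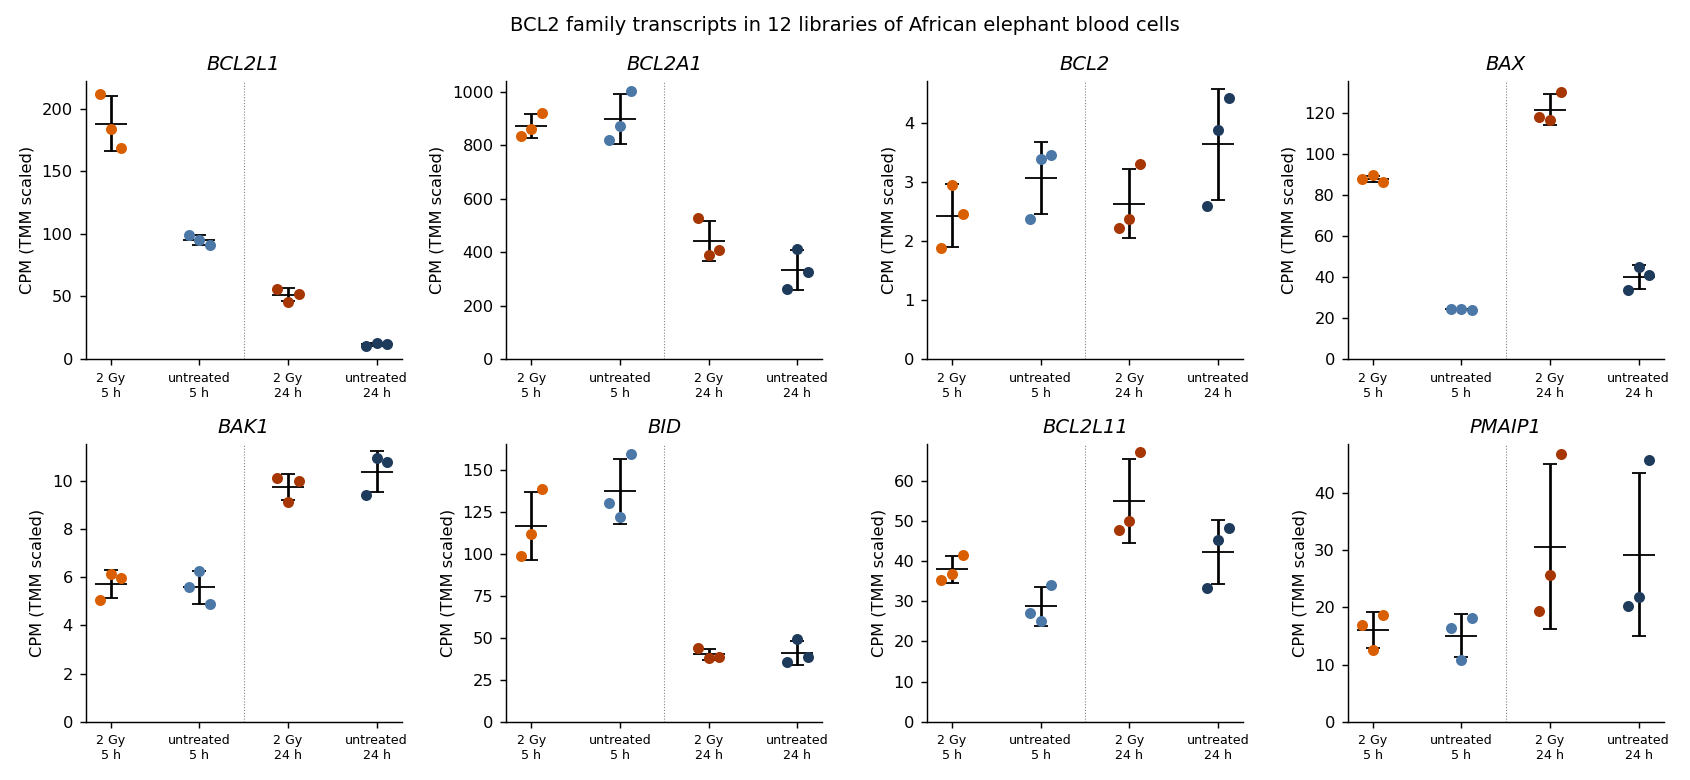
Each panel plots the CPM (TMM scaled over all 12 libraries, axis from 0) of 1 gene in 12 libraries, as points for irradiated (2 Gy) and untreated blood at 5 h and 24 h, with the mean as a bar and the SD of 3 libraries as whiskers. The irradiated libraries lie above the untreated ones at both times for BAX and BCL2L1, and BCL2L1, BCL2A1 and BID are lower at 24 h than at 5 h in both conditions.

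BCL2L1 (ENSLAFG00000002011, scaffold 19, 31017903 to 31018830, minus strand) encodes BCL-XL, a guardian that binds BAX, BAK1 and BH3-only proteins. It had 212, 183 and 169 CPM in irradiated libraries at 5 h, against 99.1, 94.8 and 91.3 CPM in untreated libraries. At 24 h it had 56.3, 45.9 and 51.7 CPM in irradiated libraries, against 10.3, 12.9 and 11.99 CPM in untreated libraries. The groups did not overlap at either time, as in 18.8% of all genes tested at 5 h and 25.4% at 24 h. Irradiated blood at 24 h stayed below untreated blood at 5 h in every library. The log2 fold change of irradiated over untreated was 0.97 ± 0.09 at 5 h, or 1.96-fold (edgeR, adjusted p = 0.00217), and 2.13 ± 0.11 at 24 h, or 4.38-fold (adjusted p = 0.000235). By p it ranked 43 at 5 h and 11 at 24 h among all genes tested. The gene model spans 928 bases of the scaffold, of which 702 are counted as exon, so reads from any part of the gene outside that span are not in these values. Whether this short model is part of the BCL2L1 gene or a copy of it elsewhere in the genome was not tested, and the BCL2L1 values are uncertain to that extent.

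The other guardians did not pass the test at either time. BCL2A1 (ENSLAFG00000011922, scaffold 28, 11036909 to 11049208, minus strand) had 833, 859 and 922 CPM in irradiated and 821, 874 and 1003 CPM in untreated libraries at 5 h (log2 fold change -0.06 ± 0.09, adjusted p = 0.843). It had 529, 389 and 406 CPM in irradiated and 264, 413 and 326 CPM in untreated libraries at 24 h (0.41 ± 0.18, adjusted p = 0.249). Both pairs of groups overlapped, at 24 h through 1 untreated library above the lowest irradiated ones. BCL2 (ENSLAFG00000000574, scaffold 4, 36561632 to 36762169, plus strand) had 1.88 to 2.95 CPM in irradiated and 2.37 to 3.46 CPM in untreated libraries at 5 h (-0.36 ± 0.22, adjusted p = 0.568), and 2.22 to 3.32 CPM in irradiated and 2.60 to 4.43 CPM in untreated libraries at 24 h (-0.47 ± 0.25, adjusted p = 0.329). Its counts, 54 to 194 per library, were the lowest of the family and its coefficient of variation was 19.8% to 25.8% in the 4 groups.

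Among the BH3-only genes, none passed the test at either time when the replicates were not paired. BCL2L11 (ENSLAFG00000004380, scaffold 129, 9611 to 57616, minus strand), whose protein BIM can bind every guardian, had 35.3, 36.9 and 41.6 CPM in irradiated libraries at 5 h, against 27.0, 25.1 and 34.2 CPM in untreated libraries. These groups did not overlap, the third member of which that held at 5 h beside BAX and BCL2L1, while 18.8% of all genes tested had no overlap. Its log2 fold change was 0.39 ± 0.12 (adjusted p = 0.239). Libraries of the same replicate number deviated together at 5 h over genes with a mean log2 CPM above 2 (correlations of 0.661 to 0.81). Over all 15200 genes they did so less (0.0951 to 0.342). With the replicate number as a block BCL2L11 passed as higher (0.39 ± 0.06, adjusted p = 0.000205). At 24 h it had 47.9, 50.1 and 67.1 CPM in irradiated and 33.3, 45.2 and 48.3 CPM in untreated libraries, which overlapped (0.38 ± 0.16, adjusted p = 0.232).

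BID (ENSLAFG00000008187, scaffold 15, 43183309 to 43188718, plus strand) links death receptors to mitochondria once caspase-8 has cleaved its protein. It had 98.8, 112 and 139 CPM in irradiated libraries at 5 h, against 130, 122 and 159 CPM in untreated libraries (log2 fold change -0.25 ± 0.14, adjusted p = 0.542). Within each replicate number the irradiated library was the lower one, although the groups overlapped, and with the block BID passed as lower (-0.25 ± 0.05, adjusted p = 0.00193). With the block 4 of 8 members thus passed at 5 h, 3 higher and 1 lower, where 20.5% of all genes passed, 10.6% higher and 9.92% lower. At 24 h BID had 38.1 to 43.9 CPM in irradiated and 35.7 to 49.2 CPM in untreated libraries (-0.03 ± 0.13, adjusted p = 0.916).

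PMAIP1 (ENSLAFG00000007820, scaffold 4, 39851862 to 39855088, minus strand) encodes NOXA, a BH3-only protein that in human cells binds mainly MCL1 and BCL2A1. It had 16.9, 12.6 and 18.7 CPM in irradiated and 16.4, 10.8 and 18.1 CPM in untreated libraries at 5 h (log2 fold change 0.08 ± 0.21, adjusted p = 0.914). At 24 h it had 19.4, 25.8 and 46.9 CPM in irradiated and 20.2, 21.8 and 45.7 CPM in untreated libraries (0.06 ± 0.40, adjusted p = 0.943). The groups overlapped at both times, and at 24 h 1 library of each group, numbered 3 in both, stood well above the others, giving coefficients of variation of 46.9% in irradiated and 48.9% in untreated blood. The model counts 177 bases, the shortest of the 8.

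**Figure D3:**
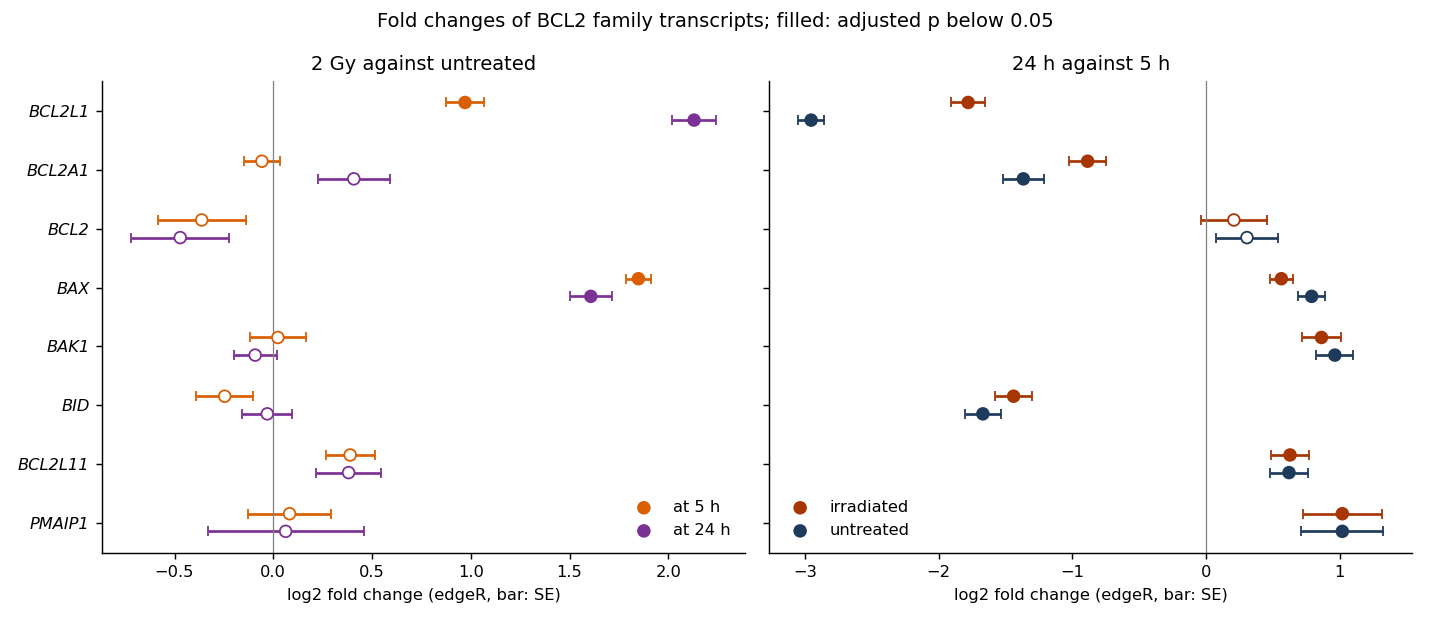
Log2 fold changes (points, edgeR) with SE (bars) of 8 genes are shown for irradiated over untreated blood at 5 h and 24 h (left) and for 24 h over 5 h in irradiated and untreated blood (right), with filled points at an adjusted p below 0.05. BAX and BCL2L1 are filled on the left at both times, and every gene but BCL2 is filled on the right in both conditions.

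The authors' deposited table gives log2 ratios coded as untreated over irradiated, the opposite direction. In it BAX stood at -1.83 at 5 h and -1.66 at 24 h, and BCL2L1 at -0.95 at 5 h and -2.18 at 24 h. The splicing column of the authors' deposited table was 0 for all 8 members at both times. Whether 0 stands there for a measured ratio or for no test was not established, so it says nothing here about splicing.

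The irradiation effects at the 2 times were then set against each other in 1 fit of all 12 libraries. These libraries also enter the comparisons above. The effect on BCL2L1 was larger at 24 h than at 5 h, by 1.16 ± 0.16 on the log2 scale (edgeR interaction term, adjusted p = 0.00386), the 1 member of 8 that passed, where 0.882% of 15200 genes passed 0.125% in the positive and 0.757% in the negative direction. Leaving out each library in turn gave 1.06 to 1.25. The BAX difference was -0.25 ± 0.13 (adjusted p = 0.617) and that of BCL2A1 0.46 ± 0.22 (adjusted p = 0.540).

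Count ratios of 2 members within a library do not depend on the scaling between libraries. The counted lengths of BAX, BCL2L1 and BCL2 are close, at 704, 702 and 711 bases. BAX over BCL2L1 was 0.414, 0.488 and 0.513 in irradiated libraries at 5 h, against 0.245, 0.258 and 0.261 in untreated libraries. At 24 h it was 2.09, 2.55 and 2.52 in irradiated libraries, against 3.29, 3.50 and 3.42 in untreated libraries. BAX reads were thus fewer than BCL2L1 reads in all 6 libraries at 5 h and more in all 6 at 24 h. The irradiated libraries lay above the untreated ones at 5 h and below them at 24 h, with no overlap at either time. The uncertainty about the short BCL2L1 model holds for its ratios too. These ratios carry no test of their own.

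Against BCL2, BAX was higher in irradiated blood at both times. The ratio was 37.4 ± 8.36 in irradiated and 8.12 ± 1.85 in untreated blood at 5 h, and 47.2 ± 7.14 in irradiated and 11.3 ± 1.91 in untreated blood at 24 h (SD, n = 3 each), without overlap. Between the effectors, BAX over BAK1 was 15.5 ± 1.60 in irradiated and 4.38 ± 0.482 in untreated blood at 5 h, and 12.5 ± 0.733 in irradiated and 3.84 ± 0.262 in untreated blood at 24 h. Between the guardians, BCL2L1 over BCL2A1 was 0.217 ± 0.0359 in irradiated and 0.107 ± 0.0149 in untreated blood at 5 h, and 0.117 ± 0.0104 in irradiated and 0.0357 ± 0.00408 in untreated blood at 24 h. BCL2L11 over BCL2L1, the death inducer against its guardian, was 0.205 ± 0.0403 in irradiated and 0.304 ± 0.0610 in untreated blood at 5 h, and 1.08 ± 0.224 in irradiated and 3.59 ± 0.406 in untreated blood at 24 h. Irradiated libraries thus lay below untreated ones in this last ratio at both times.

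**Figure D4:**
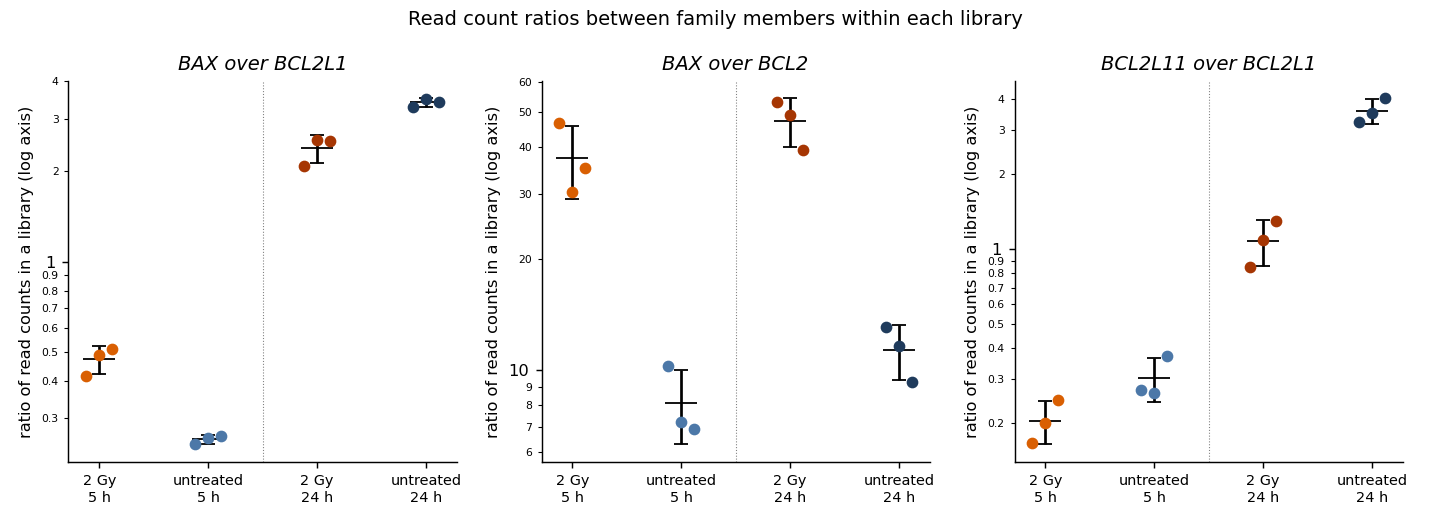
Ratios of read counts within a library (log axis) are shown for BAX over BCL2L1, BAX over BCL2 and BCL2L11 over BCL2L1, with points for 12 libraries, bars for the mean and whiskers for the SD of 3. BAX over BCL2L1 averages 0.472 in irradiated against 0.255 in untreated blood at 5 h, and 2.39 against 3.40 at 24 h.

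Between 5 h and 24 h most of the family shifted, with or without irradiation. In irradiated blood 7 of 8 members passed, 4 higher and 3 lower at 24 h, where 65.9% of 14028 genes passed, 35.3% higher and 30.6% lower. In untreated blood the same 7 symbols passed in the same directions, where 63.1% of 13445 genes passed, 32.6% higher and 30.5% lower. These shares are so large that the count of members called stands near the background. The median log2 fold change over all genes was 0.10 in irradiated and 0.11 in untreated blood, and 0.34 and 0.35 under upper quartile scaling, which left the calls of the 7 members as they were. The times come from separate tables and sets of libraries, so time and anything else that differed between those sets cannot be told apart.

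The guardians BCL2L1 and BCL2A1 were lower at 24 h. BCL2L1 had a log2 fold change of -1.78 ± 0.12 in irradiated blood (edgeR, adjusted p = 1.09e-05), a 3.43-fold fall, and of -2.95 ± 0.09 in untreated blood (adjusted p = 8e-07), a 7.74-fold fall and the fifth smallest p of all genes in that comparison. Of the neutrophil markers tested, 6 of 12 passed as lower in irradiated and 7 of 11 in untreated blood. These stood beside 30.6% and 30.5% of all genes. BCL2L1 per 100 neutrophil marker counts averaged 7.79 at 5 h and 6.81 at 24 h in irradiated blood. In untreated blood it averaged 3.69 and 2.79. Per 100 platelet marker counts it averaged 135 and 37.1 in irradiated blood, and 79.3 and 15.8 in untreated blood. The part of these markers in the fall was not tested. BCL2A1 fell by 0.89 ± 0.14 on the log2 scale in irradiated blood (adjusted p = 0.000698) and by 1.37 ± 0.15 in untreated blood (adjusted p = 0.000102). BCL2 did not pass, at 0.21 ± 0.25 in irradiated blood (adjusted p = 0.477) and 0.31 ± 0.23 in untreated blood (adjusted p = 0.273).

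Both effectors were higher at 24 h. BAX had a log2 fold change of 0.56 ± 0.09 in irradiated blood (adjusted p = 0.000607) and 0.79 ± 0.10 in untreated blood (adjusted p = 0.000205). BAK1 had 0.86 ± 0.14 in irradiated blood (adjusted p = 0.000913) and 0.96 ± 0.14 in untreated blood (adjusted p = 0.000402). The BH3-only genes went different ways. BID fell by 1.44 ± 0.14 on the log2 scale in irradiated blood (adjusted p = 5.04e-05) and fell by 1.67 ± 0.14 in untreated blood (adjusted p = 1.99e-05). BCL2L11 was higher, by 0.63 ± 0.14 in irradiated blood (adjusted p = 0.00394) and 0.62 ± 0.14 in untreated blood (adjusted p = 0.0055). PMAIP1 was higher by 1.02 ± 0.30 in irradiated blood (adjusted p = 0.0147) and 1.02 ± 0.31 in untreated blood (adjusted p = 0.0182), a call that was lost in irradiated blood without 5 h replicate 2 (adjusted p = 0.0653) and in untreated blood without 5 h replicate 1 (0.0533) or 2 (0.0746). Without 24 h replicate 3 the PMAIP1 value was 0.50 in irradiated blood (adjusted p = 0.0476) and 0.52 in untreated blood (adjusted p = 0.0423), and that of BCL2L11 in irradiated blood was 0.38 (adjusted p = 0.0187).

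Markers of blood cell types also differed between irradiated and untreated blood. The 12 neutrophil markers found summed to 2302 to 2555 CPM in irradiated and 2375 to 2739 CPM in untreated blood at 5 h, and to 665 to 935 CPM in irradiated and 349 to 610 CPM in untreated blood at 24 h. At 24 h 2 of 12 tested passed as higher in irradiated blood. BCL2L1 amounted to 7.32 to 8.30 counts per 100 neutrophil marker counts in irradiated and 3.61 to 3.85 in untreated libraries at 5 h, and to 6.02 to 7.50 in irradiated and 2.11 to 3.30 in untreated libraries at 24 h. Measured against neutrophil markers, irradiated libraries lay above untreated ones at both times, on average 7.79 against 3.69 at 5 h and 6.81 against 2.79 at 24 h. The 9 platelet markers found summed to 113 to 210 CPM in irradiated and 83.7 to 181 CPM in untreated blood at 5 h, and to 127 to 165 CPM in irradiated and 61.7 to 82.6 CPM in untreated blood at 24 h, when 4 of 9 passed as higher. Per 100 platelet marker counts BCL2L1 amounted to 80.1 to 162 counts in irradiated and 50.4 to 113 in untreated libraries at 5 h, which overlapped, and to 31.3 to 44.3 in irradiated and 14.5 to 16.7 in untreated libraries at 24 h, which did not. The 13 B cell markers found summed to 200 to 265 CPM in irradiated and 315 to 384 CPM in untreated blood at 5 h, and to 63.2 to 80.2 CPM in irradiated and 421 to 517 CPM in untreated blood at 24 h, when 12 of 12 tested passed as lower. Of the remaining lists at 24 h, 3 of 8 monocyte and 1 of 8 erythroid markers passed as higher, and 6 of 10 natural killer and cytotoxic, 3 of 14 T cell and 4 of 9 dendritic cell markers as lower. At 5 h 1 neutrophil, 1 platelet and 1 monocyte marker passed as higher and 1 B cell and 3 dendritic cell markers as lower. With the replicate block at 5 h, 11 of 13 B cell, 7 of 14 T cell, 7 of 10 natural killer and cytotoxic and 6 of 9 dendritic cell markers passed as lower, and 5 of 8 monocyte markers passed as higher and 1 as lower. The block also gave 2 higher and 3 lower calls among 11 neutrophil markers, 1 higher among 8 platelet and 1 higher among 8 erythroid markers. The part of these shifts in the results for the family was not tested.

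Other genes of the apoptosis machinery were counted beside all genes tested between irradiated and untreated blood, of which 1.6% passed at 5 h and 6.73% at 24 h. Of 10 other BCL2 family genes tested, 0 passed at 5 h with edgeR, 3 had an unadjusted p below 0.05, and DESeq2 called 1, lower. At 24 h 1 of 10 passed, BCL2L14 (BCL-G), which was lower (-0.85 ± 0.13, adjusted p = 0.0141). At 5 h it had -1.37 ± 0.29 (adjusted p = 0.0755), and passed with the replicate block (adjusted p = 1.43e-05). Of 21 genes of the mitochondrial apoptosis pathway, 1 passed at each time, both lower. VDAC3, a channel of the outer mitochondrial membrane, was the one at 5 h (-0.44 ± 0.07, adjusted p = 0.0308). With the block at 5 h, 4 of these 21 passed, all lower, and 4 of the 10 other family genes, 1 higher and 3 lower, beside 20.5% of all genes (10.6% higher, 9.92% lower).

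Of 14 genes for turnover and control of BCL2 proteins, 0 passed at 5 h with edgeR, 2 had an unadjusted p below 0.05, DESeq2 called 0, and the block called 1 higher and 1 lower, beside its 20.5% of all genes. At 24 h 1 of 14 passed, beside 6.73% of all genes. It was USP13, a deubiquitinase, which was lower (-1.21 ± 0.13, adjusted p = 0.00291), and its irradiation effect differed between the times (-1.35 ± 0.19, adjusted p = 0.00492). The median log2 fold changes of the other family, pathway and turnover lists were -0.12, -0.05 and 0.06 at 5 h and -0.0058, -0.021 and -0.018 at 24 h.

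Between the times most genes of these lists passed, as did most genes of the tables. In irradiated blood 8 of 10 other family genes passed at 24 h against 5 h (5 higher, 3 lower), and in untreated blood also 8 of 10 (5 higher, 3 lower). BCL2L2 (BCL-W), a guardian, was higher by 2.38 ± 0.28 on the log2 scale in irradiated and 2.35 ± 0.36 in untreated blood, and the BH3-only gene BMF by 1.48 ± 0.12 in irradiated and 1.29 ± 0.09 in untreated blood. Of 21 pathway genes, 17 passed in irradiated blood (7 higher, 10 lower) and 15 in untreated blood (6 higher, 9 lower). CASP9, the initiator caspase of the apoptosome, was higher by 2.11 ± 0.11 in irradiated and 1.98 ± 0.09 in untreated blood, while cytochrome c (CYCS) fell by 1.14 ± 0.12 in irradiated and 1.24 ± 0.12 in untreated blood. Of 14 turnover genes 10 passed in each, 2 higher and 8 lower in irradiated and 3 higher and 7 lower in untreated blood. FBXW7, part of a ubiquitin ligase that acts on MCL1, fell by 1.22 ± 0.08 in irradiated and 1.05 ± 0.08 in untreated blood.

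The genes whose pattern over the 12 libraries came closest to BAX and BCL2L1 were found among 10395 genes with a symbol and a mean of at least 1 CPM, by the root mean square difference of centred log2 CPM. For BAX these were ZNF608 (0.152), RPS27L (0.199) and FITM2 (0.257), against a standard deviation of BAX itself of 0.923 over the libraries. ZNF608, a zinc finger gene, had 128 ± 8.30 CPM in irradiated and 37.8 ± 6.20 CPM in untreated blood at 5 h, and 188 ± 13.5 CPM in irradiated and 60.9 ± 3.25 CPM in untreated blood at 24 h. RPS27L, a ribosomal protein gene and p53 target, had 330 ± 16.5 CPM in irradiated and 78.4 ± 1.18 CPM in untreated blood at 5 h, and 351 ± 21.8 CPM in irradiated and 111 ± 4.25 CPM in untreated blood at 24 h. None of these candidates came as close to BCL2L1, whose nearest were PHEX (0.449), SEMA3C (0.536) and CXCR2 (0.541), against its own standard deviation of 1.48. PHEX, a membrane endopeptidase gene, had 67.4 ± 13.6 CPM in irradiated and 67.9 ± 11.3 CPM in untreated blood at 5 h, and 27.7 ± 6.23 CPM in irradiated and 8.74 ± 1.26 CPM in untreated blood at 24 h. CXCR2, a chemokine receptor gene on the neutrophil list, had 8.39 ± 1.13 CPM in irradiated and 8.32 ± 0.612 CPM in untreated blood at 5 h, and 2.17 ± 0.450 CPM in irradiated and 1.01 ± 0.182 CPM in untreated blood at 24 h. SEMA3C, a semaphorin gene, had 59.3 ± 14.0 CPM in irradiated and 42.1 ± 12.9 CPM in untreated blood at 5 h, and 10.4 ± 3.30 CPM in irradiated and 3.64 ± 1.49 CPM in untreated blood at 24 h.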

How the data were processed

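The authors deposited 1 table per time point with whole-number read counts per gene and library, FPKM values and log2 ratios, per the file headers, which name the build L_africana_Jul_2009. The sources used here name no aligner or counter, and no start (0 or 1) for coordinates. Libraries were made with a stranded kit after ribosomal RNA depletion, per the labels. The deposited regularized log2 values and adjusted scores were not used. Counts of all genes were tested with edgeR 4.0.16 in R 4.3.3 (TMM, filterByExpr, quasi-likelihood test, Benjamini-Hochberg adjustment, call at 0.05), each pair of groups in a fit of its 6 libraries and the interaction in all 12. The scripts were tested on simulated data. CPM levels were scaled over all 12 libraries. DESeq2 1.42.0, other scalings and filters, a replicate block and leaving out each library were tried.

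Same-numbered libraries correlated at 0.661 to 0.81 at 5 h in deviations from group means over 9762 genes with a mean log2 CPM above 2. Over all 15200 genes these 5 h values were 0.0951 to 0.342, the lowest under the 0.1 set as the limit for pairing. At 24 h the correlations over the 9762 genes were -0.585 to 0.846. There irradiated library 1 correlated best with untreated library 2 (0.829) and irradiated 2 with untreated 1 (0.535). On the 9762 genes the numbers were thus taken to pair libraries at 5 h only.

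Named genes are all members found, at most 4 of smallest p per other list and comparison, and the 3 nearest patterns of each member that irradiation changed. Members and lists were chosen with earlier results of these data known. Some genes so selected are not reported here. No sequences are shown.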

Additional observations from a re-analysis of the deposited data

Results flagged for a closer look

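The irradiation effect on BCL2L1 differed between the times in a direct test of that difference. Irradiated over untreated was 2.13 ± 0.11 on the log2 scale at 24 h and 0.97 ± 0.09 at 5 h, and the difference in 1 fit of all 12 libraries was 1.16 ± 0.16 (edgeR's quasi-likelihood test, adjusted p = 0.00386). The adjusted p was 0.00373 to 0.0196 when each library was left out in turn. Beside it, summed neutrophil markers were at 665 to 935 CPM in irradiated and 349 to 610 CPM in untreated blood at 24 h, and at 2302 to 2555 CPM in irradiated and 2375 to 2739 CPM in untreated blood at 5 h. Per 100 neutrophil marker counts BCL2L1 averaged 6.81 in irradiated and 2.79 in untreated libraries at 24 h. At 5 h it averaged 7.79 in irradiated and 3.69 in untreated libraries. The part of these markers in the result was not tested.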

How the results depend on the processing

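BAX and BCL2L1 stayed called as higher at both times, and BCL2L1 in the interaction, under every alternative run. The replicate block raised the members called at 5 h to 4, against 2 without it, and changed no other call of a member. The numbers were taken to pair libraries at 5 h only, so the block cannot test pairing in the other comparisons. Leaving out each library gave 6 to 7 members called in each comparison between times. Values near 0 turned sign, all uncalled, and the cause was not tested: under upper quartile scaling BAK1 at 5 h (-0.0044), and in the interaction BCL2L11 (0.041) and PMAIP1 (0.031), and with genes of at least 1 CPM on average BID at 24 h (0.0061) and in the interaction BCL2L11 (0.022) and PMAIP1 (0.0082). Without 1 library the 5 h values spanned -0.072 to 0.12 (BAK1), -0.12 to 0.021 (BCL2A1) and -0.11 to 0.23 (PMAIP1), those at 24 h -0.11 to 0.12 (BID) and -0.38 to 0.52 (PMAIP1), the interaction -0.32 to 0.039 (BCL2), -0.18 to 0.089 (BCL2L11) and -0.46 to 0.45 (PMAIP1), and BCL2 with time in irradiated blood -0.060 to 0.32. Counts over all genes varied more: at 5 h 207, 2655 with the block, 417 with DESeq2 and 86 to 191 without 1 library. At 24 h they were 968, 1545 with DESeq2, 1670 with all 12 libraries and 293 to 1061 without 1 library. In the interaction they were 134, 268 with the block, 341 with DESeq2 and 76 to 168 without 1 library. Upper quartile scaling gave 6341 higher and 3121 lower genes with time in irradiated blood, against 4956 and 4293, and 5888 and 2982 in untreated blood, against 4383 and 4107. Of 32 mean CPM levels, 18 moved by more than 1 SD without TMM.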
